A study of Bos taurus with 4 samples.

Results

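H3K4me3 regions that lie inside compact H3K27me3 domains were examined in bovine embryonic stem cells (NBFR-bESCs), where both marks had been profiled by CUT&RUN. CUT&RUN uses an antibody against the mark to bring a nuclease to the chromatin around it, and the DNA that is cut free is sequenced. The regions were chosen by the positions of the listed peaks alone. An H3K4me3 region entered when at least 90% of its length lay under H3K27me3 regions found in both replicates and every H3K27me3 region it touched was narrower than 50 kb. On chromosomes 1 to 22 and 24 to 29, 2926 of 17728 H3K4me3 regions met this rule, a share of 16.5% that the rule itself fixes (95% Wilson interval 16.0% to 17.1%, counting error only). All sequences of the assembly together held 20580 H3K4me3 regions. The 2926 are called nested regions below, and the 2376 H3K27me3 regions around them are called hosts.

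There were 2 libraries for H3K4me3 and 2 for H3K27me3, each from about 50000 cells. All 4 carried the same treatment, and no other condition was compared. According to the sample labels the cells came from a single female in vitro fertilized blastocyst of day 7, whereas the paper describes a pair of independent lines, so the spread between replicates may be technical or between lines. The cells grew on mouse embryonic fibroblasts, which were depleted before the assay, in DMEM/F12 and Neurobasal medium with N-2 and B-27 supplements, 1% bovine serum albumin, 20 ng/mL FGF2 and 2.5 μM IWR-1, with Roxi added at seeding and passage. On the 28 chromosomes used, the lists held 21407 and 19839 H3K4me3 peaks in replicates 1 and 2, and 15046 and 14221 H3K27me3 peaks. No read totals or control library were used, so how deeply each library was sequenced is unknown. Each peak carries only the authors' score, which has no stated unit. Scores are therefore given as ranks, that is, the percentage of peaks of the same library with a score no higher.

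H3K4me3 is deposited around transcription start sites by trithorax-type methyltransferases, and H3K27me3 by the Polycomb repressive complex PRC2. Promoters that carry both marks are called bivalent. In embryonic stem cells such promoters are known mostly from developmental regulators that are silent or barely transcribed and can be activated or stably silenced on differentiation. Overlapping peaks from many cells do not tell if both marks occurred together on 1 nucleosome or in 1 cell.

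Of the 10 genes whose drawn position was checked against the regions, WNT2, MSX2 and GATA6 held nested regions. WNT2 encodes a secreted Wnt ligand, MSX2 a homeobox repressor of craniofacial and limb development, and GATA6 a zinc finger factor of primitive endoderm and heart. At WNT2 a single nested region of 3.6 kb, chr4:51104001-51107600 of ARS-UCD1.2, stood in a host of 17.8 kb, with 9.0 kb of H3K27me3 on its left and 5.2 kb on its right. Its H3K4me3 peak was 3.4 kb wide in both replicates and ranked at 73.7% and 73.4%. The H3K27me3 peak over it was 12.2 kb wide in replicate 1 and 17.8 kb in replicate 2, with ranks of 87.5% and 87.4%. Ranks at WNT2 thus hardly differed between replicates, while the H3K27me3 peak was wider in replicate 2.

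The host at MSX2, chr20:6432001-6457800, was 25.8 kb wide and contained 4 nested regions. The widest, chr20:6442601-6449000, measured 6.4 kb, with H3K4me3 ranks of 86.2% in replicate 1 and 83.6% in replicate 2. The region of 2.4 kb to its left ranked at 51.5% in replicate 1 and 42.2% in replicate 2. The region of 2.6 kb to its right ranked at 51.2% and 47%, and the last one, of 1.4 kb, at 4.33% and 28.8%. In each H3K27me3 library a single peak ran over all of them, 20.8 kb wide in replicate 1 and 25.8 kb wide in the other. So 1 strong H3K4me3 peak with weaker neighbours lay under one unbroken H3K27me3 peak.

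At GATA6 the host, chr24:34173601-34208800, spanned 35.2 kb and held 2 nested regions. The main one, chr24:34192001-34199800, was a single 7.8 kb peak of rank 89.2% in replicate 2. In replicate 1 the same stretch was listed as peaks of 5.8 and 1.4 kb, with ranks of 85.9% and 36.1%. The second nested region, chr24:34186401-34187800, had the same limits in both replicates, with ranks of 33.4% and 22.1%. A further H3K4me3 peak of 0.8 kb in this host, of rank 6.87%, was listed in replicate 1 alone. H3K27me3 peaks of 33.8 kb and 35.2 kb covered the locus without a break, at ranks of 97% and 96.2%. The H3K4me3 regions at the other drawn genes did not meet the rule. Those at TBX3 and HOXA9 lay under hosts of 50 kb or wider, that at SOX2 was only partly overlapped, and those at NANOG, TGFBR1 and SBDS touched no H3K27me3 region. FOXA2 had no shared H3K4me3 region in its window, although the paper counts it among the genes with bivalent domains. At HOXA9, which the paper names for H3K27me3, the window held 4 H3K4me3 regions. The windows were estimated visually from browser panels, so a misplaced window cannot be told from an absence of H3K4me3 at FOXA2.

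**Figure D1:**
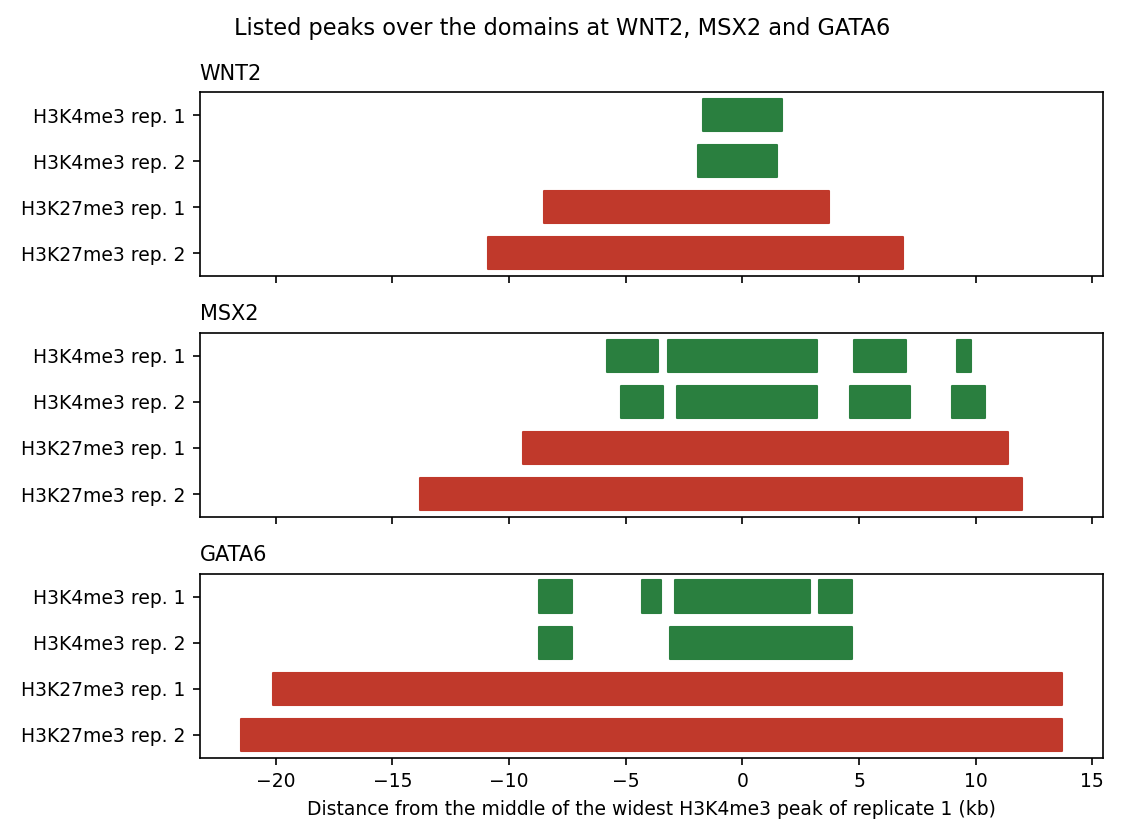
Listed peaks of the 4 libraries over the hosts at WNT2, MSX2 and GATA6. The horizontal axis is the distance in kb from the middle of the widest H3K4me3 peak of replicate 1, green bars are H3K4me3 peaks and red bars H3K27me3 peaks; at each gene 1 H3K27me3 peak per library reaches past all nested H3K4me3 peaks on both sides.

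The nested regions had a median width of 2600 bp, with a middle range (lower to upper quartile) of 1800 to 3600 bp and extremes of 200 and 23600 bp. Their H3K4me3 peaks measured 2400 bp at the median in replicate 1 and 2400 bp in replicate 2. The 13357 H3K4me3 regions without H3K27me3 were wider, at 3200 bp, and the 836 regions only partly overlapped were the widest, at 3600 bp. The 609 regions that met the limit of 90% but lay in hosts of 50 kb or wider were narrower, at 2400 bp. A short region is more easily covered over 90% of its length, so part of these differences is set by the rule and none was tested. The nested share fell from 34.3% of the 344 regions under 1 kb to 20.3% of those from 1 to 2 kb, 18.7% of those from 2 to 4 kb and 10.3% of those from 4 to 8 kb, and was 11% of the 626 regions of 8 kb or wider.

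Coverage by H3K27me3 was mostly complete. Of the nested regions, 2821 (96.4%) lay under H3K27me3 over the whole length and 105 over 90% or more but not all of it. Among H3K4me3 regions that touched only H3K27me3 regions under 50 kb, a further 134 were covered for under 25% of their length, 213 for 25 to 50%, 252 for 50 to 75% and 196 for 75 to 90%. Full coverage was thus by far the most frequent state, while the regions covered in part lay on both sides of the limit. The members closest to it were chr13:76279001-76283000 and chr14:42968401-42972400, both covered for exactly 90%, and the nearest regions left out were chr16:79588001-79593800 at 89.7% and chr20:3225201-3229000 at 89.5%. At the limit on the host, the last 2 members shared a host of 49.8 kb on chromosome 18, chr18:50731001-50732800 and chr18:50742201-50747200. The first regions beyond it were chr18:63644601-63648200, in a host of 50.0 kb, and chr10:20173801-20175400, in one of 50.2 kb.

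The lists of the single libraries were read as well. Both H3K27me3 lists had chosen the members, so the cover of nested regions in each list was largely set by the rule. In the lists of replicate 1, 2871 nested regions (98.1%) overlapped exactly 1 H3K27me3 peak, and in replicate 2 there were 2857 (97.6%). Peaks of H3K27me3 were joined by the authors across up to 5 windows of 200 bp, which hides any break of up to 1000 bp. Nested regions wider than 1200 bp cannot be bridged in that way as a whole. Of these 2594 regions, 2198 (84.7%) were under one unbroken H3K27me3 peak over their full length in replicate 1, and 2239 (86.3%) in replicate 2. Within them, breaks of up to 1000 bp remain invisible. Of the 836 partly overlapped regions, which by definition lack such coverage, 751 had H3K27me3 at only 1 end, 40 at both ends and 45 at neither.

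Nested regions usually had 1 flank longer than the other. The median stretch of H3K27me3 was 4200 bp to the left of a nested region and 4200 bp to its right, where left means towards the chromosome start, a direction that says nothing of the gene. The shorter flank measured 2600 bp at the median and the longer one 6600 bp. At least 1000 bp of H3K27me3 lay on both sides of 2285 nested regions (78.1%) and at least 2000 bp on both sides of 1775 (60.7%). By contrast, 266 (9.09%) reached or passed an edge of their host.

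The H3K27me3 peaks around nested regions were followed outwards from the middle of the region. The limit of 50 kb on the host bounds how far they can reach, so the fall with distance describes the members and was largely set by the choice. At the middle of the region, 96.9% of them were under an H3K27me3 peak in replicate 1 and 96.4% in replicate 2. The shares fell to 84.5% and 86.3% at 2 kb from the middle, 50.1% and 52.8% at 5 kb, 29.1% and 30.5% at 10 kb and 18.7% and 20.5% at 20 kb, averaged over both directions. At 20 kb the partly overlapped regions stood close by, at 17.5% and 17.8%, and the regions without H3K27me3, which were selected for its absence, at 5.03% and 5.23%. H3K4me3 peaks were narrower than this, and 21.9% and 22.3% of nested regions were still under one at 2 kb from the middle.

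**Figure D2:**
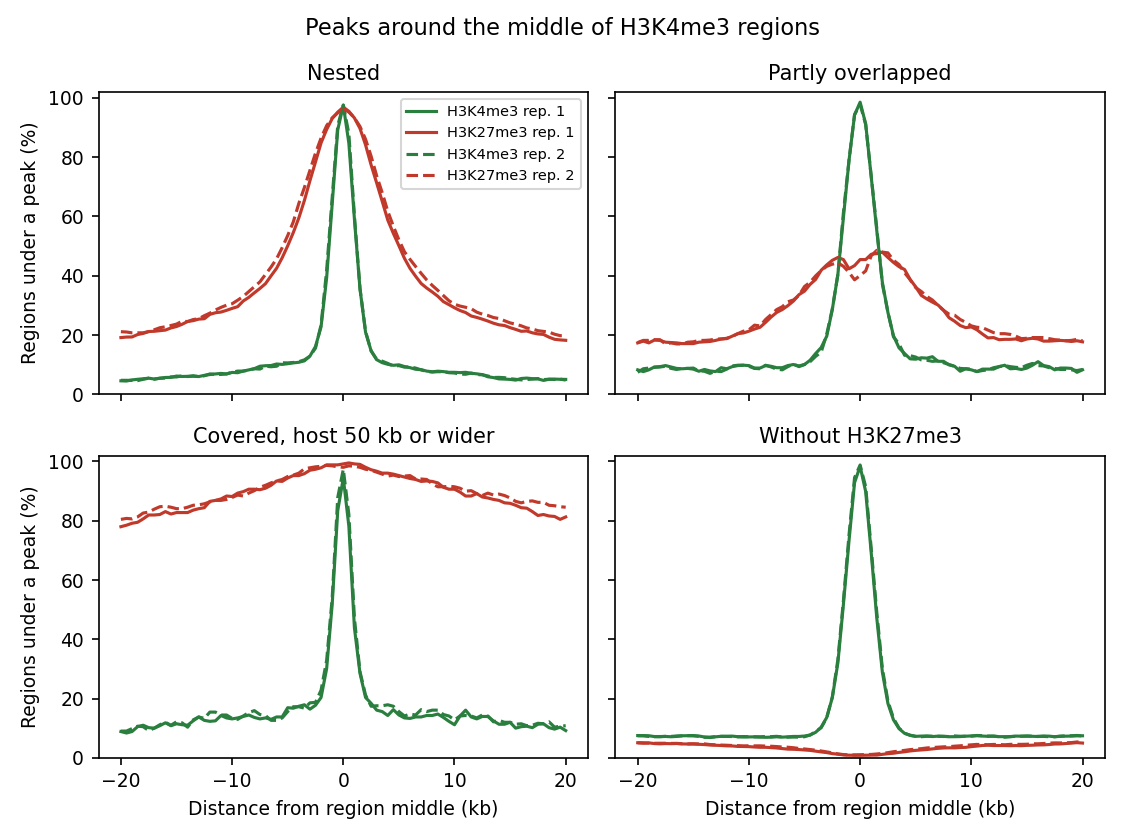
Share of H3K4me3 regions under a listed peak (vertical axis, percent) by distance in kb from the middle of the region, for the 2926 nested regions, the 836 partly overlapped, the 609 in hosts of 50 kb or wider and the 13357 without H3K27me3. Solid and dashed lines are replicates 1 and 2, green is H3K4me3 and red H3K27me3; around nested regions the red curves fall to 50.1% and 52.8% at 5 kb, and in the wide hosts they are above 90% at that distance, a difference that the limit on host width builds in.

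The hosts had a median width of 11200 bp, with a middle range of 7400 to 18000 bp. Their widest H3K27me3 peak measured 9000 bp at the median in replicate 1 and 9400 bp in replicate 2. Hosts were 24.7% of the 9633 H3K27me3 regions under 50 kb, and 6613 of those regions (68.6%) touched no H3K4me3 region. The domains without H3K4me3 were somewhat narrower, with a median of 9800 bp. Their H3K27me3 scores ranked at 51.4% and 51.0% in replicates 1 and 2, against 74.3% and 69.1% for the hosts. A further 644 compact domains touched H3K4me3 without being hosts. These were narrower still, at 6000 bp, and ranked lowest, at 43.7% and 39.5%. The groups were formed from the same peaks by a rule that needs room for a whole region, and their differences were not tested.

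The share of compact H3K27me3 domains that were hosts was higher among wide domains, which have more room for an H3K4me3 region. It was 16.8% of the 1106 domains under 5 kb, 22.3% of the 3728 from 5 to 10 kb, 27% of the 3124 from 10 to 20 kb and 30.9% of the 1675 from 20 to 50 kb. The nested regions themselves hardly changed in width, with medians of 2200 bp in hosts under 5 kb and 2800 bp in each wider group. Nested regions therefore filled 60.9% of the narrowest hosts at the median and 13.4% of the widest, and 28.6% over all hosts. Over all 2926 nested regions the rank correlation between their width and that of the host was 0.08 (Spearman, a description over regions, which are not independent replicates).

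Most hosts held a single nested region. There were 1995 with 1 (84.0%), 280 with 2 and 101 with 3 or more. The share with 2 or more grew from 2.69% of hosts under 5 kb to 38.2% of those from 20 to 50 kb. Nested regions of one host were close together, with a median gap of 1200 bp and an upper quartile of 3550 bp. H3K4me3 peaks were joined across only 1 window, so 1 enriched stretch with a short break may be listed as separate regions. Regions that were alone in their host ranked higher for H3K4me3, at medians of 55.5% and 51.3% in replicates 1 and 2, than the 560 that shared it with one other, at 45.6% and 40.9%, or the 371 in larger groups, at 46.7% and 42.0%. Their hosts ranked lower for H3K27me3, at 70.9% and 65.8% against 96.9% and 95.7% for the larger groups, and were narrower, at 10200 bp against 33000 bp.

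Position inside the host was not used by the rule except that the region had to lie within it. It was measured from 0, a region in the middle of its host, to 1, a region against the edge. Where the host leaves ample room, even placing gives a median near 0.5. Among 1892 regions that were alone and wholly inside their host, the median was 0.37. The innermost of 5 equal classes held 29% of them and the outermost 11.6%, where even placing with ample room gives about 20% each. From the lists of each replicate alone the median was 0.40 in replicate 1 and 0.37 in replicate 2. In hosts under 5 kb the median was 0.61 (142 regions), against 0.38 from 5 to 10 kb, 0.32 from 10 to 20 kb and 0.38 from 20 to 50 kb. Limits move in steps of 200 bp, and nested regions filled 60.9% of the hosts under 5 kb at the median. Few positions are possible there, so 0.5 is not the value of even placing, and 0.61 does not show a place nearer the edge. Regions that ran past an edge of their host or filled it have no value on this scale and were left out.

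**Figure D3:**
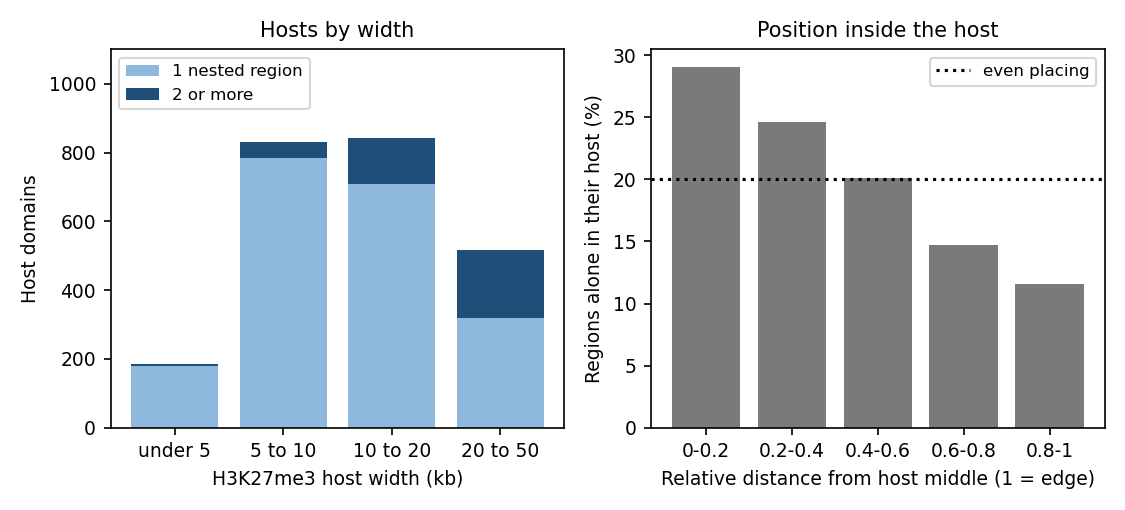
Left, number of host domains by width in kb, split into hosts with 1 nested region and with 2 or more. Right, share of the 1892 regions alone in their host (percent) by relative distance from the middle of the host, with a dotted line at the 20% of even placing with ample room. The share falls from 29% in the innermost class to 11.6% in the outermost.

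Nested H3K4me3 peaks were of middling strength. Their median rank was 52.2% in replicate 1 and 48.0% in replicate 2, below the 67.5% and 64.8% of regions without H3K27me3 and the 68.0% and 63.8% of partly overlapped ones, and above the 41.5% and 36.8% of regions in wide hosts. Each of these gaps was larger than the difference between the replicates of the nested regions. The same lists chose the members, so the gaps were not tested. Only 122 nested regions (4.17%) ranked at 90% or above in replicate 1 and 115 (3.93%) in replicate 2, against 15.5% and 14.2% of the regions without H3K27me3. At the other end, 9.02% and 14.9% of the nested regions ranked below 25%, close to the 8.94% and 13% without H3K27me3. By the score per window of 200 bp, nested regions were again lower, with medians of 51.0% and 46.4% against 67.8% and 64.8% without H3K27me3. Partly overlapped regions, at 62.7% and 59.7%, were below those without H3K27me3 on this measure. As the score has no stated unit, dividing it by the number of windows may not take out width.

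Within classes of width the order was not the same throughout. From 4 to 8 kb, nested regions ranked at 75.1% and 72.8% in replicates 1 and 2, and regions without H3K27me3 at 87.0% and 85.8%. From 2 to 4 kb the values were 54.2% and 49.8% against 61.8% and 58.6%. Below 2 kb the order turned. Nested regions from 1 to 2 kb ranked at 34.4% and 28%, against 30.1% and 22.7%, and those under 1 kb at 18.1% and 9.87%, against 12.2% and 4.84%. At 8 kb or more both were near the top, at 97.3% and 96.8% for nested regions and 98.1% and 98% for the others. Both replicates gave the same order in every width class.

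**Figure D4:**
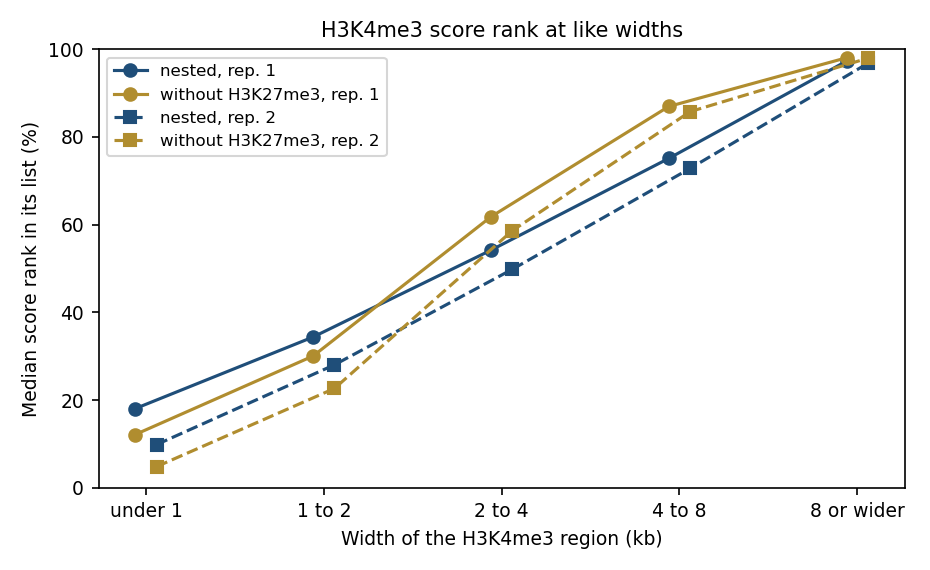
Median rank of the H3K4me3 score within its list (vertical axis, percent) by width of the H3K4me3 region in kb, for nested regions (blue) and regions without H3K27me3 (ochre), circles for replicate 1 and squares for replicate 2. Nested regions lie below the others from 2 kb up and above them under 2 kb, in both replicates.

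Across nested regions the score rank of one mark told little of that of the other. The rank correlation between the H3K4me3 and the H3K27me3 rank was 0.00 over 2903 regions in replicate 1 and 0.03 over 2892 in replicate 2. Both ranks rose with width. In replicate 1 the median H3K27me3 rank was 30.0% in hosts under 5000 bp and 94.3% in those from 20000 to 50000 bp. The median H3K4me3 rank was 18.1% for nested regions under 1000 bp and 97.3% for those of 8000 bp or wider. Widths of region and host were hardly correlated, at 0.08. A relation between the marks apart from width was not tested. Between the replicates, H3K4me3 ranks of nested regions correlated at 0.96 and H3K27me3 ranks at 0.93. Nested regions were built from H3K4me3 peaks shared by both replicates, and no such value was read for the other H3K4me3 regions. Limits of the H3K4me3 peak were close as well. The start differed by 200 bp at the median, the smallest step of the lists. It was the same in both replicates for 30.1% of the nested regions. This was near the 28.2% of regions in hosts of 50 kb or wider, against 24.6% without H3K27me3 and 22.7% of partly overlapped ones.

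Nesting recurred between replicates. To read it in lists that had no part in the choice, peaks were chosen from one replicate alone and looked up in the other. In replicate 1, 3440 H3K4me3 peaks were nested by the rule, and 2616 of them (76.0%, interval 74.6% to 77.4%) overlapped a peak that was nested in replicate 2 too. Among all 21407 H3K4me3 peaks of replicate 1, 14.3% did so, and among the 16308 without an H3K27me3 peak in replicate 1, 0.724%. From the other side, 2618 of 3236 peaks nested in replicate 2 (80.9%, interval 79.5% to 82.2%) overlapped one nested in replicate 1, against 15.7% of all 19839 and 0.801% of those without an H3K27me3 peak. The intervals cover counting error only.

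Among nested peaks, recurrence was lowest for weak H3K4me3 peaks. When the H3K4me3 peaks of a replicate were ordered by score and divided into 4 equal groups, 49.7% of the nested peaks in the lowest group of replicate 1 recurred as nested, against 82.7%, 86.1% and 83.5% in the higher groups. In replicate 2 the shares were 69.1% in the lowest group and 86.2%, 84.3% and 82.8% in the others. A peak can recur as nested only if it is listed in the other replicate at all. Shares by score group were not read for other H3K4me3 peaks, so it is unknown if the low share is particular to nested ones. Of the peaks nested in replicate 1, 3099 (90.1%) overlapped any H3K4me3 peak of replicate 2, near the 85.3% of peaks not nested. Of the 3099, 84.4% met a nested peak, against 2.96% of the peaks not nested but listed again. From the other side 3072 (94.9%) were listed again, near the 92.3% of peaks not nested. Of the 3072, 85.2% met a nested peak, against 3.22% of the peaks not nested but listed again. Cover of the 2926 nested regions is no such look-up, since the H3K27me3 lists of both replicates chose them, and was largely set by the rule. Of these regions, 2609 (89.2%) were covered for at least 90% by the H3K27me3 peaks of replicate 1, 2637 (90.1%) by those of replicate 2, and 2346 (80.2%) by each. For 23 of them replicate 1 had no H3K27me3 peak over the region, and for 34 replicate 2 had none. In those cases the shared H3K27me3 region came from a peak of the other library that overlapped its partner elsewhere.

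The widest nested region was chr2:24446401-24470000, of 23.6 kb in a host of 31.2 kb, with H3K4me3 ranks of 99.9% in both replicates. It was followed by chr4:29486401-29509400 of 23 kb, with ranks of 99.8% and 98.4%, and chr11:27352401-27371200 of 18.8 kb, with 99% and 99.3%. The next were chr8:73351401-73369600 of 18.2 kb, with 98% and 99.2%, and chr3:21302801-21319800 of 17 kb, with 99.9% and 99.9%. All 5 were alone in their hosts, and H3K27me3 extended 1.0 to 15.4 kb past each end. The H3K27me3 ranks of these hosts were between 89.6% and 97.5% in replicate 1. Genes at these places are not named, since gene positions of that build were not used here.

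By the lower of the 2 H3K4me3 ranks, the first 5 nested regions included the chromosome 2 and chromosome 3 regions just named. The others were chr16:818001-829800 of 11.8 kb, chr2:121566401-121572600 of 6.2 kb and chr21:32919401-32935400 of 16 kb. The region at chr2:121566401-121572600 had the same limits as its host, so both marks were listed over the same 6.2 kb. By score per window it ranked between 99.967% and 99.977% in all 4 lists. In all, 12 nested regions (0.410%) were in the top 1% of all 4 lists by score per window. Of these 12, 4 lay within 1 Mb of a chromosome start or of the last peak of a chromosome. Among all nested regions 6.29% lay that close to an end, and among all H3K4me3 regions 4.27%. Of the 1445 other H3K4me3 regions that overlapped H3K27me3, 1 (0.0692%) was in the top 1% of all 4. Those regions were covered only in part or lay in hosts of 50 kb or wider, where the score per window is averaged over a wide peak. The rule thus shapes this contrast, which was not tested. The part of signal common to all libraries in these 12 was not tested, as no control library was used.

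The fullest host, chr9:7801-50800, was 43 kb wide and held 11 nested regions of 400 to 4000 bp. Their lowest and highest H3K4me3 ranks were 2.61% and 54.9% in replicate 1, and 2.03% and 49.1% in the other, while its H3K27me3 peak ranked at 98.6% and 97.6%. A host of 15.8 kb at chr21:33010601-33026400 held 8 nested regions, of which 2 were among the 12 regions just described. Another 8 lay in a host of 24 kb at chr28:504001-528000. Most H3K4me3 peaks of these 3 hosts ranked below 50% in both replicates. The hosts on chromosomes 21 and 28 each held 1 much stronger peak, of rank 98.3% and 98.7% on chromosome 21 and 92.3% and 88.9% on chromosome 28.

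Nested regions were present on each of the 28 chromosomes, from 41 on chromosome 27 to 170 on chromosome 3. Per Mb, up to the last peak of the chromosome, the number ranged from 0.624 on chromosome 1 to 2.17 on chromosome 19, with a median of 1.18. The nested share of the H3K4me3 regions ran from 10.8% on chromosome 25 to 24.9% on chromosome 4, around a median of 17.1%. Chromosomes 18, 19 and 25, with 15.5 to 16.7 H3K4me3 regions per Mb, had shares of 12.9%, 13% and 10.8%. Chromosomes 6, 9 and 20, with 4.29, 4.42 and 4.32 per Mb, had shares of 22.4%, 22.3% and 21.9%. Over the 28 chromosomes the rank correlation of the nested share with the density of H3K4me3 regions was -0.69, a description in which both values share the count of H3K4me3 regions. Sparse chromosomes were not all high, as chromosome 12, the sparsest at 4.07 per Mb, had a share of 18.9% and chromosome 1, at 4.28 per Mb, one of 14.6%.

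**Figure D5:**
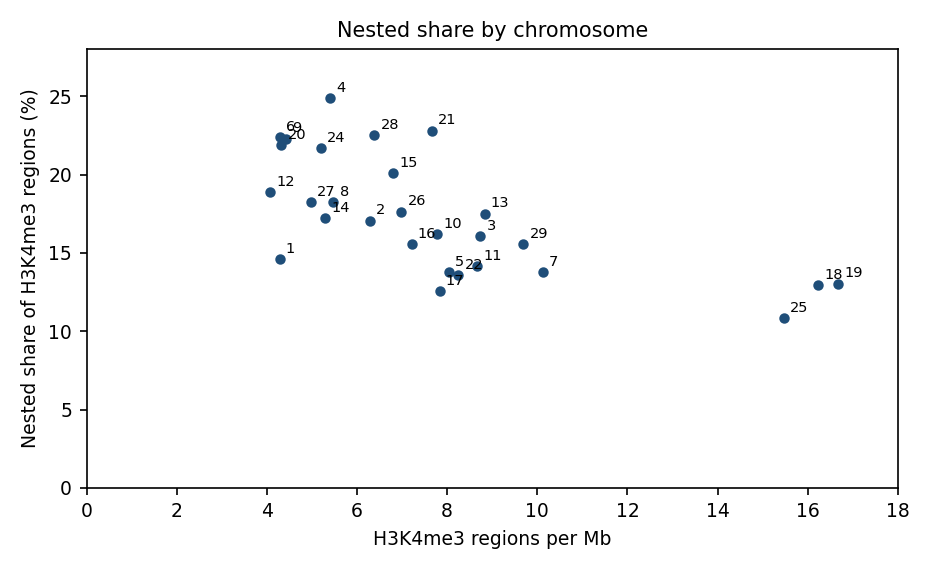
Nested share of H3K4me3 regions (vertical axis, percent) against H3K4me3 regions per Mb for the 28 chromosomes used, each point labelled with its chromosome number. The densest chromosomes 18, 19 and 25 lie at 10.8% to 13%, and chromosome 4 is highest at 24.9%.

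Along the chromosomes, hosts were mostly far apart, with a median gap of 487800 bp between neighbours, and 12.4% of the gaps were under 50 kb. Of 2449 stretches of 1 Mb, 1316 held at least 1 nested region. The 133 stretches with 5 or more held 867 nested regions, or 29.6% of all. The fullest stretch was 113 to 114 Mb of chromosome 4, with 23 nested regions in 17 hosts among 38 H3K4me3 regions. Next was the first Mb of chromosome 28, with 17 nested regions in 5 hosts. Nested regions made up 24.3% of the 757 H3K4me3 regions within 1 Mb of a chromosome start or last peak (interval 21.4% to 27.5%), against 16.5% on the chromosomes as a whole. The first Mb of chromosomes 9, 13 and 28 alone held 39 nested among 44 H3K4me3 regions, and without these 3 stretches, a choice made after seeing the data, the share was 20.3% (145 of 713, interval 17.5% to 23.4%). Neighbouring regions share hosts, so these intervals are too narrow.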

How the data were processed

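Reads had been trimmed, mapped to the ARS-UCD1.2 assembly by BWA and filtered for duplicates and mapping quality by the authors, who then ran epic2 separately on every library in windows of 200 bp, joined across up to 1 window for H3K4me3 and 5 for H3K27me3. No control library or pooling is stated. Each deposited list gives positions and a score per peak, whose meaning is not named, so it was used only within its list. Mark and replicate came from the sample titles.

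Peaks found in both replicates of a mark, with 1 bp or more in common, were merged into regions, and positions are counted from 1. Everything beyond shares with 95% Wilson intervals is a description, since the lists chose the members. The members and the settings were chosen with earlier results of these data known. Windows for 10 drawn genes were estimated visually from the browser panels of the paper. WNT2, MSX2, GATA6, the 5 widest, the 5 highest ranked regions, the 3 fullest hosts and the 2 regions on each side of a limit were named by rule; other regions were named after their values were seen, as were the classes by width and company and the regions at the top of all 4 lists. No genome of ARS-UCD1.2 was used, so no sequence is shown and no coordinate of the gene table of another assembly was taken. Alternatives changed the coverage and host limits, the peaks used, the chromosomes and the replicates. The overlap steps recovered all 955 planted nested regions among 4000 simulated peaks and gave the counts of bedtools 2.31.1. The tools were matplotlib 3.10.9, scipy 1.17.1, pandas 2.3.3 and numpy 2.4.6 under Python 3.11.15.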

Additional observations from a re-analysis of the deposited data

How the results depend on the processing

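No paired analysis was possible because no model was fitted to which a replicate term could be added. Nesting within each replicate's own pair of lists was read instead. When peaks scoring below their list's median were dropped, nested regions numbered 1036 instead of 2926 and were 9.56% of the H3K4me3 regions, with a median width of 3800 bp, hosts of 13400 bp, 93.3% of hosts with 1 nested region and a median distance from the middle of 0.33. The other settings kept the number within 1.5 times. With at least 50% of the region covered, the share was 19.0%, the width 2800 bp, the host 10400 bp, and 79.6% and 85.0% of the peaks nested in replicates 1 and 2 recurred. With hosts under 20 kb the share was 11.7%, the host 9400 bp and 90.2% of hosts held 1; under 100 kb these were 18.3%, 11800 bp and 82.0%. With the peaks of either replicate the width was 2400 bp, the host 10600 bp and 80.2% held 1. The share was 15.9% with full coverage, 15.9% with shared peaks that overlapped by 50%, 16.2% with H3K27me3 peaks of at least 2000 bp, where the width was 2800 bp, and 16.9% with chromosomes 23 and X. With a replicate left out the number ranged from 3236 to 3440, the share from 16.1% to 16.3%, the width from 2000 to 2200 bp, the host from 9200 to 9800 bp, the share of hosts with 1 from 79.9% to 80.5% and the distance from 0.37 to 0.40. The cause of these moves was not tested. The reads behind the lists are not known, so a mark too weak to be listed cannot be told from an absent one.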

Other observations

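By the same rule, the sequences left out of the report held further nested regions. There were 195 among the 1169 H3K4me3 regions of chromosome 23 (16.7%), 183 among the 686 of chromosome X (26.7%) and 636 among the 997 on unplaced sequences (63.8%). On a sequence shorter than 50 kb any host meets the limit on width. Lengths of the unplaced sequences were not read, so their share cannot be set beside those of the chromosomes. Differences between these shares were not tested.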
